A study of Mus musculus with 20 samples.

Results

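The 10 genes described here are the core circadian clock genes Arntl (also called Bmal1), Clock, Per1, Per2, Per3, Cry1, Cry2, Nr1d1, Nr1d2 and Dbp, measured in the mouse uterus after estrogen or xenoestrogen treatment. They were chosen by name from the array annotation, and each gene was represented by its brightest probe over all arrays, a choice that used no treatment group. All 10 genes were found, with 18 probes among the 41174 probes that were not controls. All 18 probes were well above background on each of the 20 arrays, none was saturated, and all passed the filter that left 32460 probes for testing. Adult C57bl6/J females of at least 10 weeks had been ovariectomized, which removes the main source of ovarian hormone, and rested for 10 to 14 days. Each received a single subcutaneous injection in sesame oil. The agents were 17β-estradiol (E2, 250 ng), bisphenol A (BPA, a building block of polycarbonate plastic, 750 µg), HPTE (a metabolite of the pesticide methoxychlor, 750 µg), or 100 µl of the oil alone (vehicle). Uteri were taken 2 hr or 24 hr later, and RNA from individual uteri was hybridized to 1-colour arrays, with 3 arrays per group except E2 at 24 hr, which had 2. All 3 vehicle arrays carried a 24 hr label and served both times. The hour of day of injection and collection was not given in the sources used here. For the 2 hr groups, treatment, time since injection and hour of day therefore cannot be told apart, and hour of day cannot be checked between any of the groups.

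The circadian clock is a feedback loop of transcription that runs in most cells of the body, uterine cells included. ARNTL and CLOCK bind DNA as a pair at E-box sequences and drive the genes of their own repressors, the PER and CRY proteins, as well as Nr1d1, Nr1d2 and Dbp. NR1D1 and NR1D2 (REV-ERBα and REV-ERBβ) repress Arntl at sequences that the ROR receptors use to activate it. DBP activates genes with a D-box, which NFIL3 represses. In a running clock, Arntl therefore peaks at the opposite time of day from Nr1d1 and Dbp.

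Promoter windows from RefSeq (GRCm38.p6), each running from 250 bases before the annotated start to 50 after it, were matched for 9 of the 10 genes, all but Per2, with 13 windows in all. Stretches of 100 bases that hold the best known clock motifs are shown because the factors of the loop described above are known to bind such letters, with the E-box, its variant or the D-box in capitals. The Per1 stretch also holds AGGTCA, a part of the ROR site, on the other strand, left in lower case. The E-box was searched as CACGTG and its variant as CACGTT (read as AACGTG on the other strand), and the D-box as TTANGTAA. The cAMP response element was searched as TGACGTCA and the estrogen response element as GGTCANNNTGACC. Of the ROR site only the part AGGTCA was searched, so a match does not show a full ROR site. All searches covered both strands. The estrogen response element contains most of AGGTCA, so matches of that pair may overlap.
Per1, chr11:69098735-69098834, plus strand: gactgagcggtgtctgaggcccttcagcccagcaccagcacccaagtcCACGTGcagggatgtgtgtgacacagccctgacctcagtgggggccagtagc
Cry1, chr10:85185072-85185171, minus strand: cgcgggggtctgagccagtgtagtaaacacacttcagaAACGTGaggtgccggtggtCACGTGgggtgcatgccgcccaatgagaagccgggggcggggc
Cry2, chr2:92434184-92434283, minus strand: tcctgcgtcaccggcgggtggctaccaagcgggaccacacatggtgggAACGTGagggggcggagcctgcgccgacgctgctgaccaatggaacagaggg
Nr1d1, chr11:98775354-98775453, minus strand: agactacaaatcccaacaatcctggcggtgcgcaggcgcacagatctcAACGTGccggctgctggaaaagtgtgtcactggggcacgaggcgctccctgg
Per3, chr4:151044794-151044893, minus strand: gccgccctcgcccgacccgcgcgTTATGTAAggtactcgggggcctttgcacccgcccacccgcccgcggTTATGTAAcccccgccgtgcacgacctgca

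The E-box was present in 2 of the 13 windows (Per1 and Cry1) and its variant in 3 (Cry1, Cry2 and Nr1d1). Of the 32851 mouse windows of the same length, 7.15% and 4.68% held them. The D-box was in 1 of the 13 windows, that of Per3, in 2 copies, and 2.32% of all windows contain it. The letters AGGTCA, the part of the ROR site that was searched, were found in 4 of the 13 windows, of Per1, Arntl, Clock and Nr1d2 (16.3% of all windows). No window of these genes held the cAMP response element (1.79% of all windows) or the estrogen response element (0.07%). These counts describe letters in short windows and say nothing of binding.

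Values are log2 processed intensities relative to the 75th percentile of the same array, so that 0 is the level of that percentile and a difference of 1 is a 2-fold change. They compare a gene between arrays and not genes with each other. A change was called when the adjusted p of limma's moderated test, Benjamini-Hochberg over all 32460 probes of a comparison, was under 0.05. Spread between arrays covers the animals in this experiment, and with 2 or 3 arrays per group it is estimated from few samples. In whole tissue, fewer cells of a type and less RNA per cell cannot be told apart. All 12 uterine marker genes were well above background on every array. Their summed linear signal, which weighs the brightest genes most, was 413.7 to 435.7 times the 75th percentile on vehicle arrays. It was 603.9 to 636.6 times it at HPTE 24 hr and 653.0 to 696.6 times it at E2 24 hr. The mean log2 values of Esr1, Hoxa10 and Hoxa11 were below vehicle in both of these treated groups, and those of the other uterine markers above it. Markers of other tissues moved with the groups. The 7 sperm cell markers summed to between 30.8 and 101.6 on vehicle arrays and at most 12.5 on all others. The sum of 6 pancreas markers reached 1563 and 120.7 on replicates 2 and 3 of E2 at 2 hr, 4.03 and 9.88 at E2 24 hr, and at most 0.53 elsewhere. The 7 adipose markers ranged from 28.8 to 81.2 on vehicle arrays, from 13.1 to 16.9 at E2 24 hr and from 5.68 to 49.2 at HPTE 24 hr. The sum of 6 leukocyte markers was 12.2 on BPA 2 hr replicate 1 and at most 5.96 elsewhere. The sum of 5 skeletal muscle markers ranged from 3.73 to 4.60 on vehicle arrays, from 6.69 to 8.73 at HPTE 24 hr and from 13.6 to 14.5 at E2 24 hr. That sum followed Acta1, whose mean log2 value was 1.91 with vehicle and 3.78 at E2 24 hr. Ckm was at -5.92 and -5.69, and the means of Myh4, Mylpf and Tnnt3 were lower at E2 24 hr than with vehicle. The part of these tissues in the results was not tested beyond leaving out arrays. BPA 2 hr replicate 3 stood apart from the other 2 arrays of its group for several clock genes, and the main results that rest on it are given with and without it.

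At 24 hr the E2 uterus had less of nearly the whole set. In it 9 of the 10 genes were lower than vehicle and none was higher, where 37.6% of all probes were called lower and 26.3% higher. Their median change was -1.09 on the log2 scale, against -0.15 over all tested probes. BPA and HPTE at 24 hr shared with E2 a fall in Arntl, and apart from that 1 other gene was called, Per3, which rose under BPA. At 2 hr Per2 and Cry2 were called higher and Nr1d1 lower with all compounds. The E2 calls among these depended on the scaling, and those of Cry2 and Nr1d1 also on single arrays and the slide. In the test of any difference among the 7 groups each of the 10 genes was called, with adjusted p from 1.02e-08 for Per2 to 0.000273 for Clock, as were 26402 of all probes.

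**Figure D1:**
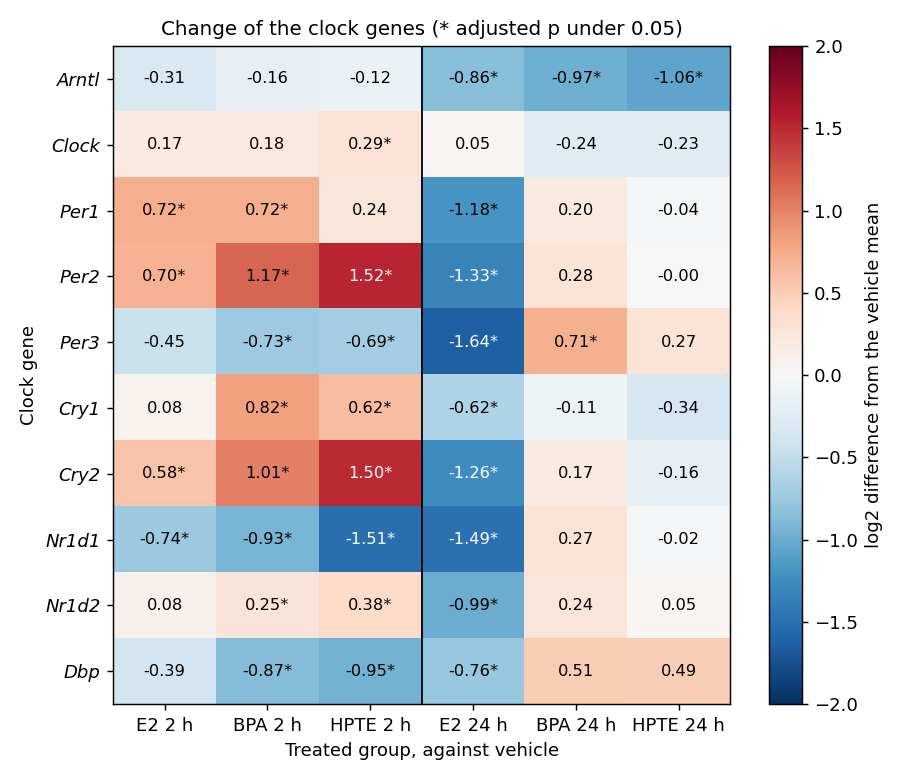
Each cell gives the log2 difference of a treated group (columns, 2 hr left of the line and 24 hr right of it) from the vehicle mean for a clock gene (rows), red for higher and blue for lower, with a star where the adjusted p was under 0.05. The E2 24 hr column is blue for 9 of 10 genes, whereas at 24 hr the starred blue cell that BPA and HPTE share is that of Arntl.

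The period genes encode repressors of the ARNTL and CLOCK pair, and all 3 fell at E2 24 hr. Per2 (probe at chr1:91323914-91323973 of mm7, the build of all probe positions here, minus strand) read 0.67, 0.37 and 0.55 on the vehicle arrays and -0.72 and -0.89 at E2 24 hr. The groups did not overlap, and the change was -1.33 ± 0.15 (SE), 2.52-fold lower, with an adjusted p of 2.07e-06. Per3 (chr4:149994689-149994748, minus strand) read -2.26, -2.03 and -2.08 with vehicle and -3.67 and -3.85 with E2. This was the deepest fall of the set, 3.11-fold (log2 change -1.64 ± 0.23, adjusted p = 1.46e-05). Per1 (chr11:69190950-69191009, plus strand), which many acute stimuli induce, read 1.49, 1.08 and 1.28 with vehicle and 0.14 and 0.07 with E2. Its change was -1.18 ± 0.23 (adjusted p = 0.000416).

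The cryptochromes, partners of the PER proteins in repression, fell to different depths. Cry2 (chr2:92254922-92254981, minus strand) read 0.82, 0.91 and 1.10 with vehicle and -0.18 and -0.45 at E2 24 hr. The groups were clear of each other, with a change of -1.26 ± 0.19 (adjusted p = 3.91e-05), and the second, dimmer Cry2 probe changed by -1.24. Cry1 (chr10:84685114-84685173, minus strand) read -3.25, -3.12 and -3.12 with vehicle and -4.02 and -3.56 with E2. The E2 arrays were below all vehicle arrays, but the change of -0.62 ± 0.20 (adjusted p = 0.0134) was not called without E2 24 hr replicate 2 (-0.39), nor under quantile normalization (-0.22), normexp with quantile normalization (-0.15) or with the slide as a block (-0.58).

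The REV-ERB genes and Dbp, direct targets of the ARNTL and CLOCK pair, were lower too. Nr1d1 (chr11:98878251-98878753, minus strand, a span longer than the probe) read 0.93, 0.80 and 0.99 with vehicle and -0.41 and -0.76 at E2 24 hr. It fell by 1.49 on the log2 scale (SE 0.25, adjusted p = 0.000112). Nr1d2 (chr14:16018965-16019024, minus strand) read 2.36, 2.30 and 2.33 with vehicle, the tightest vehicle values of the set, and 1.46 and 1.21 with E2, a change of -0.99 ± 0.09 (adjusted p = 2.02e-07). Dbp (chr7:41886169-41886228, plus strand) read 5.79, 5.45 and 5.53 with vehicle and 4.88 and 4.78 with E2. Its change was -0.76 ± 0.24 (adjusted p = 0.0127), and it was not called without E2 24 hr replicate 3 (adjusted p = 0.0743).

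Of the activators, Arntl fell and Clock showed no called change. Arntl (chr7:109229489-109229548, plus strand) read -0.49, -0.13 and -0.05 with vehicle and -1.08 and -1.09 at E2 24 hr, a change of -0.86 ± 0.14 (adjusted p = 5.89e-05). Arntl and Nr1d1 were thus both below vehicle at E2 24 hr, and the part of hour of day in this was not tested. Clock (chr5:76144675-76144734, minus strand) read 1.08, 0.85 and 0.99 with vehicle and 0.88 and 1.17 with E2, so the groups overlapped (change 0.05, 95% confidence interval -0.17 to 0.26). Under scaling to 8 spike-in probes, 6 of the 9 falls at E2 24 hr were called, and those of Arntl, Cry1 and Dbp were not. All 9 kept their sign there.

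At 24 hr few of the clock genes were called against vehicle with BPA or HPTE, which does not show that the rest were unchanged. With BPA 2 genes were called, 1 higher and 1 lower (5.09% and 8.03% of all probes), and with HPTE 1 lower and none higher (19.1% and 14.9%). The BPA count was not below the share of all probes called in either direction (13.1%), so it was not low for this set. The HPTE count was below that share (34.0%). The lower gene was Arntl with both compounds. It read -1.22, -1.17 and -1.18 with BPA and -1.25, -1.45 and -1.15 with HPTE, all below the lowest vehicle array at -0.49. The change was -0.97 ± 0.12 (adjusted p = 0.000309) with BPA and -1.06 ± 0.12 (adjusted p = 2.07e-05) with HPTE. Both calls held under every scaling tried, and without each array in turn. By the brightest probes, Arntl was therefore the gene of the set called lower at 24 hr with E2, BPA and HPTE alike. The falls were 1.81-, 1.96- and 2.08-fold, and the call with E2 was lost under spike-in scaling. The dimmest Clock probe was also called lower with each compound at 24 hr (-1.07, -0.70 and -0.79).

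Per3 read -1.42, -1.44 and -1.38 with BPA at 24 hr, above the vehicle arrays at -2.26 to -2.03, a change of 0.71 ± 0.20 (adjusted p = 0.0308). That call was lost when any 1 of the 3 vehicle or 3 BPA 24 hr arrays was left out (adjusted p from 0.0531 to 0.124), with slide or scan day as a fixed block, and without scaling or with spike-in scaling. With HPTE, Per3 read -2.46, -1.64 and -1.48, so that replicate 1 lay below the vehicle arrays and the other 2 above them. The HPTE change was 0.27 ± 0.20 (adjusted p = 0.338), and without replicate 1 it was 0.57 (adjusted p = 0.0133). Dbp was above all vehicle arrays on all 6 xenoestrogen arrays at 24 hr, at 6.05, 6.18 and 6.07 with BPA and 6.22, 6.05 and 5.96 with HPTE. Its changes of 0.51 ± 0.22 and 0.49 ± 0.22 were not called (adjusted p = 0.14 and 0.0973). Without BPA 2 hr replicate 3, which feeds the shared estimate of spread, both were (adjusted p = 0.00896 and 0.00454).

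**Figure D2:**
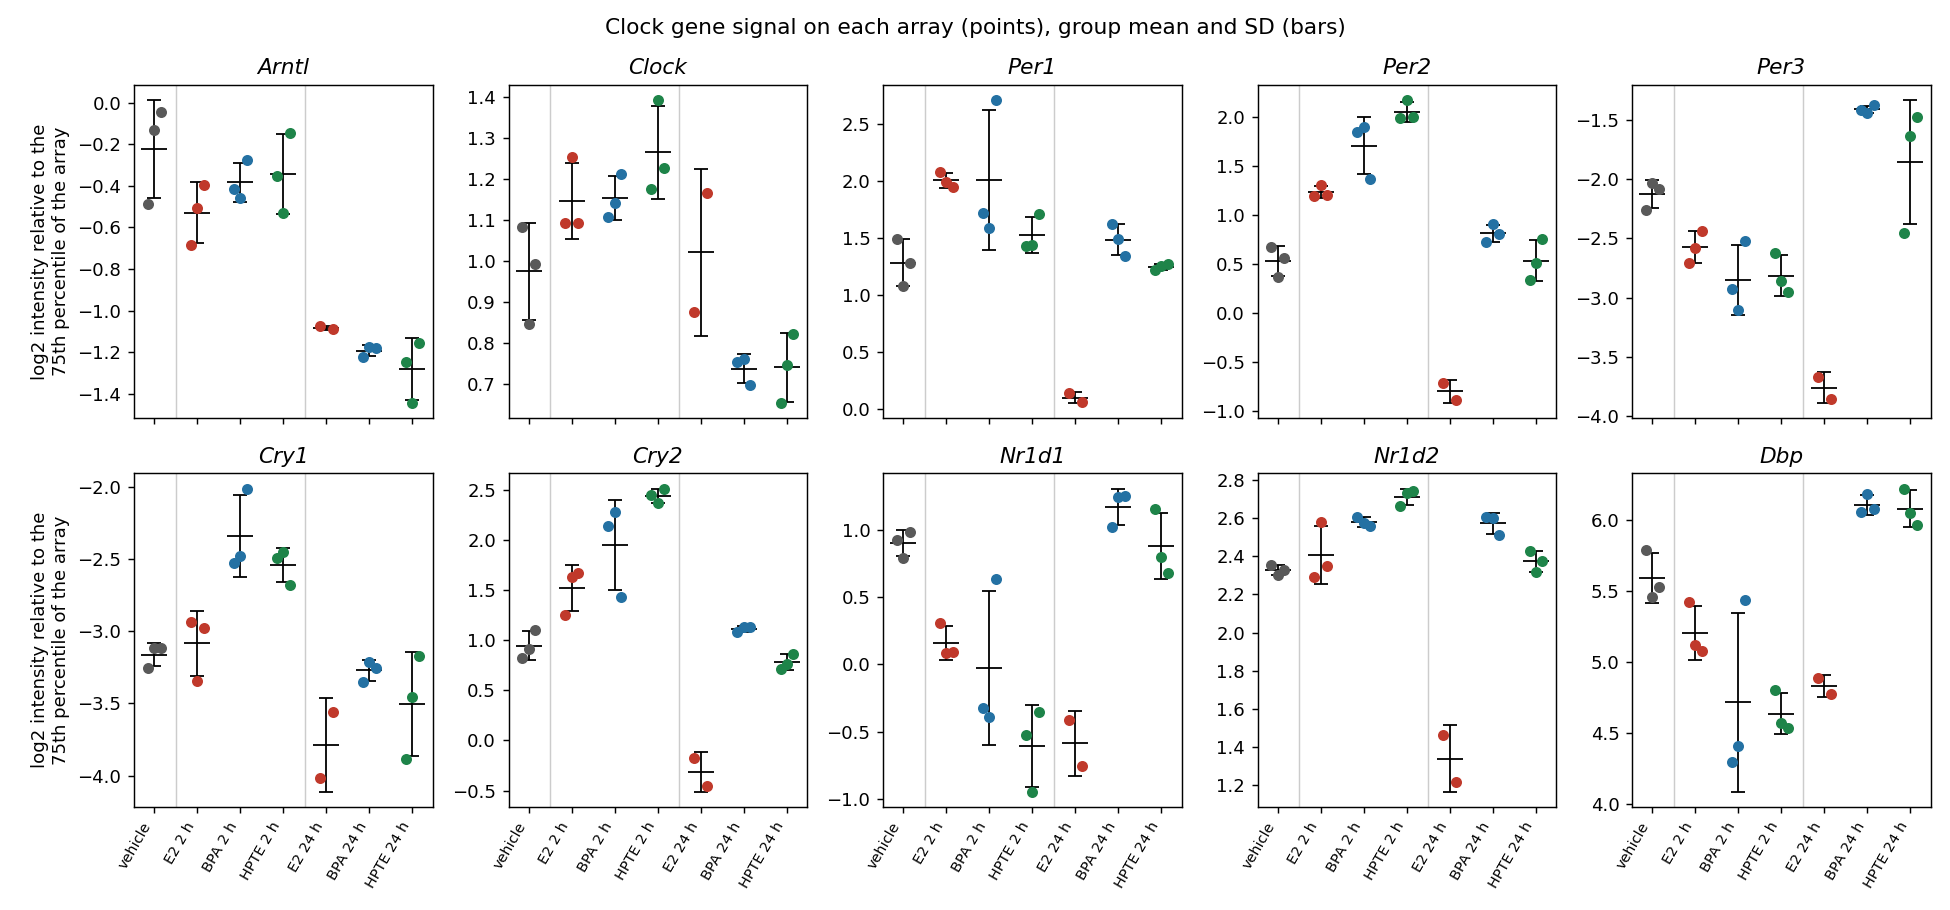
Each point is the log2 intensity of a clock gene on 1 array relative to the 75th percentile of that array (vertical axes differ between genes), by group along the horizontal axis, with the group mean and SD as bars. The 2 E2 24 hr arrays lie below all other groups for Per1, Per2, Per3, Cry2 and Nr1d2, and Arntl is low in all 24 hr treated groups but not in the vehicle group.

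Set against E2 at the same time, the xenoestrogen arrays at 24 hr were higher for most of the set. The dose of E2 was lower than those of BPA and HPTE, so compound and dose cannot be told apart here. Relative to E2, 8 genes were higher with BPA and 1 lower (33.2% and 24.6% of all probes), and 7 were higher with HPTE and 1 lower (27.3% and 21.6%). Per3 differed most, by 2.35 ± 0.23 with BPA (adjusted p = 5.19e-07) and 1.90 ± 0.23 with HPTE (adjusted p = 6.67e-06). Per1 was higher by 1.38 and 1.14, Per2 by 1.61 and 1.33, Cry2 by 1.43 and 1.10, Nr1d1 by 1.76 and 1.47, Nr1d2 by 1.23 and 1.04, and Dbp by 1.27 and 1.25 with BPA and HPTE respectively, each called. Cry1 was called with BPA (0.51, adjusted p = 0.0393) and not with HPTE (0.28, adjusted p = 0.27). The Cry1 call was lost without E2 24 hr replicate 2 or any 1 of the BPA 24 hr arrays. Clock was lower by the same small step with both (-0.28, adjusted p = 0.0252 and 0.0313), and both calls were lost without E2 24 hr replicate 3 (-0.14 in each case). The BPA call was also lost without BPA 24 hr replicate 3 and the HPTE call without HPTE 24 hr replicate 1 or 2. Under spike-in scaling the HPTE calls of Per1 (0.81), Cry2 (0.77), Nr1d2 (0.71), Dbp (0.92) and Clock (-0.61) were lost and those of Per2, Per3 and Nr1d1 were not, and with BPA those of Cry1 and Clock were lost. Arntl differed by -0.11 with BPA (95% confidence interval -0.40 to 0.18) and -0.20 with HPTE (-0.49 to 0.09).

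**Figure D3:**
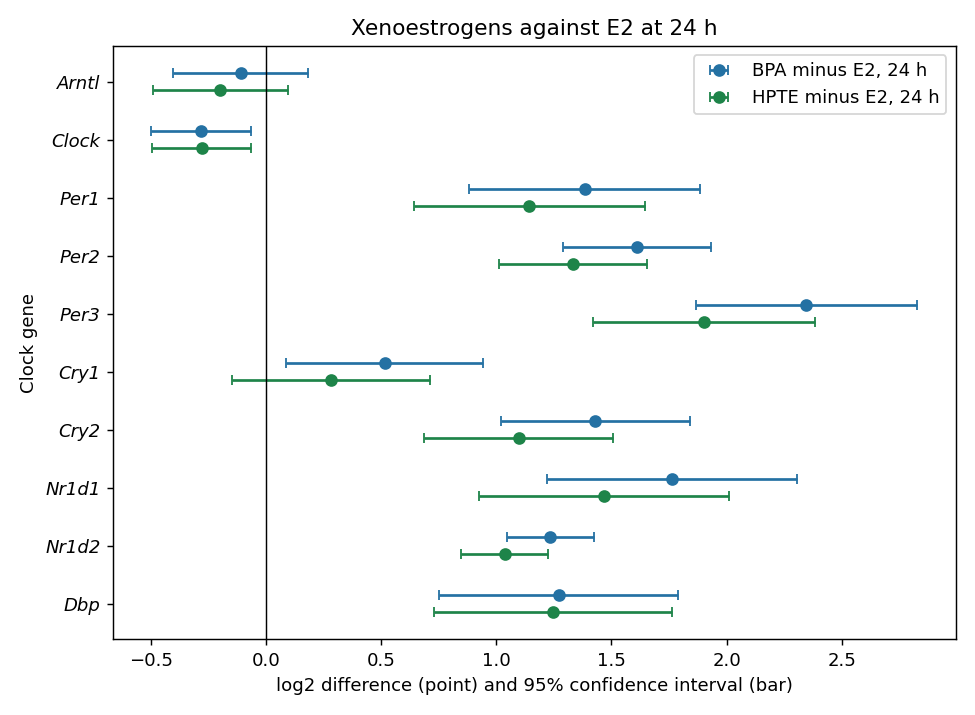
Points give the log2 difference of BPA (blue) or HPTE (green) from E2 at 24 hr for each clock gene, with 95% confidence intervals as bars and a line at 0. Per1, Per2, Per3, Cry2, Nr1d1, Nr1d2 and Dbp lie well to the right of 0 with both compounds, and the intervals of Arntl cross 0.

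At 2 hr the changes ran in both directions. E2 changed 4 genes, 3 higher and 1 lower (11.1% and 17.0% of all probes). BPA changed 8, 5 higher and 3 lower (19.3% and 30.2%), and HPTE also 8, 5 higher and 3 lower (19.9% and 28.2%). Each of the lower counts was near its share of all probes. The median changes of the set were 0.08, 0.22 and 0.27, beside -0.06, -0.10 and -0.09 over all probes.

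By its brightest probe Per2 rose with each compound. It read 1.19, 1.30 and 1.20 with E2, 1.84, 1.90 and 1.37 with BPA, and 1.99, 2.17 and 1.99 with HPTE, all above the highest vehicle array at 0.67. The groups stood in the order E2, BPA, HPTE without overlap. The changes were 0.70 ± 0.14 (adjusted p = 0.00124), 1.17 ± 0.14 (7.3e-06) and 1.52 ± 0.14 (5.83e-07). Cry2 followed, at 1.26, 1.63 and 1.67 with E2, 2.14, 2.28 and 1.43 with BPA and 2.45, 2.37 and 2.51 with HPTE. Every treated array was above the vehicle maximum of 1.10, while the E2 and BPA arrays overlapped. The Cry2 changes were 0.58 ± 0.17 (adjusted p = 0.0208), 1.01 ± 0.17 (0.000224) and 1.50 ± 0.17 (5.54e-06). On the second, dimmer Cry2 probe they were 0.94, 0.58 and 1.06, each called, so E2 and BPA stood in the other order there.

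Cry1 and Nr1d2 were called with the xenoestrogens and not with E2. Cry1 read -2.53, -2.48 and -2.01 with BPA and -2.49, -2.45 and -2.68 with HPTE, all above the vehicle arrays at -3.25 to -3.12. It changed by 0.82 ± 0.18 with BPA, 0.62 ± 0.18 with HPTE and 0.08 ± 0.18 with E2 (adjusted p = 0.00152, 0.00994 and 0.804). Nr1d2 read 2.61, 2.57 and 2.56 with BPA and 2.66, 2.73 and 2.74 with HPTE, a small shift from vehicle of 0.25 ± 0.08 and 0.38 ± 0.08 (adjusted p = 0.0166 and 0.000959). The BPA call was lost without vehicle replicate 2 (adjusted p = 0.0502). With E2 the Nr1d2 change was 0.08 ± 0.08 (adjusted p = 0.518).

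Per1 showed a different order from Per2. It read 2.08, 1.99 and 1.95 with E2, 1.72, 1.59 and 2.71 with BPA and 1.43, 1.44 and 1.71 with HPTE. The BPA mean rested on replicate 3. The change was 0.72 ± 0.21 with both E2 and BPA (adjusted p = 0.0181 and 0.0101), and without that array the BPA change was 0.37 (adjusted p = 0.0185). The HPTE change of 0.24 ± 0.21 was not called. The paper reports that Per1 rose with E2, BPA and HPTE by RT-PCR in other samples, without giving the time in its text. The E2 call was lost without vehicle replicate 2 or E2 2 hr replicate 1 (0.62 and 0.68, adjusted p = 0.075 and 0.0512).

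Nr1d1, Dbp and Per3 moved down at 2 hr. Nr1d1 read 0.31, 0.08 and 0.09 with E2, -0.32, -0.39 and 0.64 with BPA, and -0.53, -0.95 and -0.35 with HPTE, all below the vehicle minimum of 0.80. Its change was -0.74 ± 0.23 with E2 (adjusted p = 0.024), -0.93 ± 0.23 with BPA (0.00338) and -1.51 ± 0.23 with HPTE (6.25e-05). Dbp read 5.42, 5.12 and 5.08 with E2, 4.30, 4.41 and 5.44 with BPA and 4.80, 4.57 and 4.54 with HPTE. It fell by 0.87 with BPA and 0.95 with HPTE (SE 0.22, adjusted p = 0.00372 and 0.00198), whereas the E2 change of -0.39 was not called (adjusted p = 0.211) except without BPA 2 hr replicate 3 (adjusted p = 0.0187). Per3 changed by -0.73 with BPA and -0.69 with HPTE (SE 0.20, adjusted p = 0.00768 and 0.0106), and by -0.45 with E2 (adjusted p = 0.115). Under normexp with quantile normalization the Per3 changes were -0.39 and -0.31 with BPA and HPTE and neither was called.

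The activators moved little at 2 hr. Arntl changed by -0.31, -0.16 and -0.12 with E2, BPA and HPTE, none of them called, although without vehicle replicate 1 the E2 change was -0.44 and called (adjusted p = 0.0149). Clock read 1.17, 1.39 and 1.23 with HPTE, a change of 0.29 ± 0.09 (adjusted p = 0.015) that was lost without vehicle replicate 2 or HPTE 2 hr replicate 2 (0.23 in each case).

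Without BPA 2 hr replicate 3, the same 8 genes were called for BPA at 2 hr. Nr1d1 then changed by -1.26, Dbp by -1.23, Cry2 by 1.26, Per2 by 1.34, Per3 by -0.89, Cry1 by 0.66 and Nr1d2 by 0.26. For E2 at 2 hr, the calls of Cry2 and Nr1d1 were lost without any of 4 single arrays. In Cry2 these were vehicle replicates 1 and 2 and E2 replicates 2 and 3, with adjusted p from 0.0588 to 0.0819. In Nr1d1 they were vehicle replicates 1 and 3 and the same E2 replicates, with adjusted p from 0.0638 to 0.0706. With E2 replicate 1 alone, whose pancreas marker sum (0.31) was like that of other groups, and which is then assumed to vary as they do, Per2 changed by 0.65, Per1 by 0.79, Cry2 by 0.31 and Nr1d1 by -0.59, and none was called.

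With scaling to the spike-in probes, no gene was called at 2 hr with E2, 2 with BPA (Per2 and Cry2) and 3 with HPTE (Per2, Cry2 and Nr1d1). At an unadjusted p under 0.05 limma gave 3 genes for E2 under that scaling. Without any scaling between arrays, which moved the median of all probes at E2 2 hr from -0.06 to -0.29, the E2 calls of Per1, Per2 and Cry2 were lost too, and Per3 (-0.68, adjusted p = 0.0382) and Arntl (-0.54, adjusted p = 0.0324) were called lower. All 3 genes then called for E2 at 2 hr, Nr1d1 among them, were lower, in place of 3 higher and 1 lower.

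BPA and HPTE were given at the same dose and sampled at the same times, and differ at the carbon that joins their phenol rings, which carries a trichloromethyl group in HPTE and methyl groups in BPA. None of the 10 genes was called between them, at 2 hr (0.437% of all probes called) or at 24 hr (4.08%). At 2 hr 4 genes had an unadjusted p under 0.05, with HPTE minus BPA at -0.48 for Per1 (95% confidence interval -0.93 to -0.03), 0.35 for Per2 (0.06 to 0.64), 0.49 for Cry2 (0.12 to 0.86) and -0.58 for Nr1d1 (-1.07 to -0.10). Without BPA 2 hr replicate 3 these differences were -0.13, 0.18, 0.23 and -0.25. At 24 hr the unadjusted p was under 0.05 for 2 genes, Per3 (-0.45, -0.88 to -0.01) and Nr1d2 (-0.20, -0.37 to -0.03). The lowest and highest limits of any gene were -1.07 and 0.86 at 2 hr, and -0.88 and 0.44 at 24 hr. For each gene, differences between the 2 compounds within its own interval were not excluded by these arrays.

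Against E2 at 2 hr, 2 genes were higher with BPA and none lower (7.92% and 11.1% of all probes), and 3 were higher and 1 lower with HPTE (8.45% and 8.18%), with doses that differ as above. Per2 was higher by 0.47 ± 0.14 with BPA (adjusted p = 0.0255) and 0.82 ± 0.14 with HPTE (adjusted p = 0.00107), and Cry1 by 0.74 ± 0.18 with BPA (adjusted p = 0.011, and 0.58 without BPA 2 hr replicate 3). With HPTE Cry2 was higher by 0.92 ± 0.17, Nr1d2 by 0.31 ± 0.08, and Nr1d1 lower, at -0.77 ± 0.23 (adjusted p = 0.00247, 0.0168 and 0.0311). The second probes of Cry2 and Nr1d1 were not called here (0.12 and -0.45, adjusted p = 0.659 and 0.123). With slide as a fixed block neither BPA call held (Per2 0.44 and Cry1 0.70, adjusted p = 0.134 and 0.0585), nor did the HPTE calls of Nr1d1 (-0.66) and Nr1d2 (0.30), with adjusted p of 0.146 and 0.0735. Several calls also depended on single arrays. That of Per2 with BPA was lost without E2 2 hr replicate 1 or 3 or BPA 2 hr replicate 1 or 2. With HPTE that of Nr1d1 was lost without any 1 of the E2 2 hr arrays or HPTE 2 hr replicate 1 or 2, and that of Nr1d2 without E2 2 hr replicate 1 or 3 or HPTE 2 hr replicate 2 or 3. Without BPA 2 hr replicate 3, 6 genes were called between BPA and E2 and 7 between HPTE and E2. Among the former Per1, which did not differ with all arrays (0.00), was lower with BPA (-0.35, adjusted p = 0.0424), and Dbp changed by -0.85 (adjusted p = 0.000332).

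From 2 hr to 24 hr the set moved in different ways with E2 and with the xenoestrogens. With E2, 8 genes were lower at 24 hr and none higher (30.1% and 25.9% of all probes). Per2 changed by -2.03 ± 0.15, Per1 by -1.90 ± 0.23 and Cry2 by -1.84 ± 0.19 (adjusted p = 4.65e-08, 6.04e-06 and 1.17e-06). Per3 changed by -1.19, Nr1d2 by -1.07, Nr1d1 by -0.75, Cry1 by -0.70 and Arntl by -0.55, each called, the Nr1d1 call being lost without E2 2 hr replicate 1 or E2 24 hr replicate 3 and that of Cry1 without E2 24 hr replicate 2. With BPA 3 genes were higher and 5 lower (28.2% and 20.2%), and with HPTE 3 higher and 6 lower (29.5% and 24.6%). Both higher counts were near the share of all probes, and the higher genes were the same with both compounds. Dbp changed by 1.38 ± 0.22 with BPA and 1.44 ± 0.22 with HPTE, Nr1d1 by 1.20 ± 0.23 and 1.49 ± 0.23, and Per3 by 1.44 ± 0.20 and 0.96 ± 0.20. Per2 changed by -0.89 and -1.52, Cry2 by -0.83 and -1.66, Cry1 by -0.93 and -0.96, Arntl by -0.81 and -0.94 and Clock by -0.42 and -0.53, all called, and with HPTE Nr1d2 was lower too (-0.34). Without BPA 2 hr replicate 3 the same 8 genes were called for BPA, at 1.75 for Dbp, 1.53 for Nr1d1, 1.60 for Per3, -1.06 for Per2, -1.09 for Cry2, -0.77 for Cry1, -0.76 for Arntl and -0.39 for Clock.

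The change from 2 hr to 24 hr was then compared between compounds by an interaction term. Relative to E2, 7 genes had a more positive change with BPA and none a more negative one (28.9% and 22.0% of all probes), and 5 a more positive and 1 a more negative change with HPTE (25.4% and 20.7%). The interaction was 2.62 ± 0.30 for Per3 with BPA (adjusted p = 4.88e-06) and 2.14 ± 0.30 with HPTE (4.59e-05). For Nr1d1 it was 1.95 ± 0.34 and 2.24 ± 0.34 (0.000222 and 8.82e-05) and for Dbp 1.76 ± 0.33 and 1.81 ± 0.33 (0.000358 and 0.000352). Without BPA 2 hr replicate 3 the BPA interactions were 2.79 for Per3, 2.28 for Nr1d1 and 2.12 for Dbp. Between HPTE and BPA no gene had a called interaction (0.0863% of all probes), and 3 had an unadjusted p under 0.05 (Per2, Cry2 and Nr1d2, at -0.63, -0.83 and -0.33, or -0.46, -0.57 and -0.32 without that array).

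With slide as a fixed block, the calls for E2 at 2 hr went from 4 to 2, those of Cry2 (0.57, adjusted p = 0.0622) and Nr1d1 (-0.84, adjusted p = 0.0531) being lost. The call of Nr1d2 for BPA at 2 hr was lost as well (0.24, adjusted p = 0.0591). Within slides that held arrays of both groups, called differences had the sign of the whole comparison, for example 9 of 9 values in 1 slide for E2 at 24 hr. The groups did not overlap for any called difference between groups, which fixed these signs, so they add no support.

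Genes with more than 1 probe gave a further view. Clock had 4 probes, and on this minus-strand gene a lower coordinate is closer to the 3′ end. The 2 lowest, at chr5:76144675-76144734 and chr5:76145071-76145130, changed by 0.05 and -0.16 at E2 24 hr (adjusted p = 0.718 and 0.443). The other 2, at chr5:76167876-76167935 and chr5:76186708-76186767, changed by -1.29 ± 0.18 and -1.07 ± 0.17 (adjusted p = 1.49e-05 and 5.56e-05). The third of the 4 by brightness, annotated to a different transcript record from the rest, read -1.27, -1.30 and -1.48 with vehicle and -2.72 and -2.57 with E2, clear of each other. The dimmest probe shares its record with those near the 3′ end. With HPTE at 24 hr all but the brightest probe were called lower (-0.50, -0.66 and -0.79), and with BPA the second and the dimmest were (-0.59 and -0.70), while the brightest probe changed by -0.23 and -0.24 without a call. Statements on Clock in the comparisons above hold for its brightest probe unless another probe is named.

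**Figure D4:**
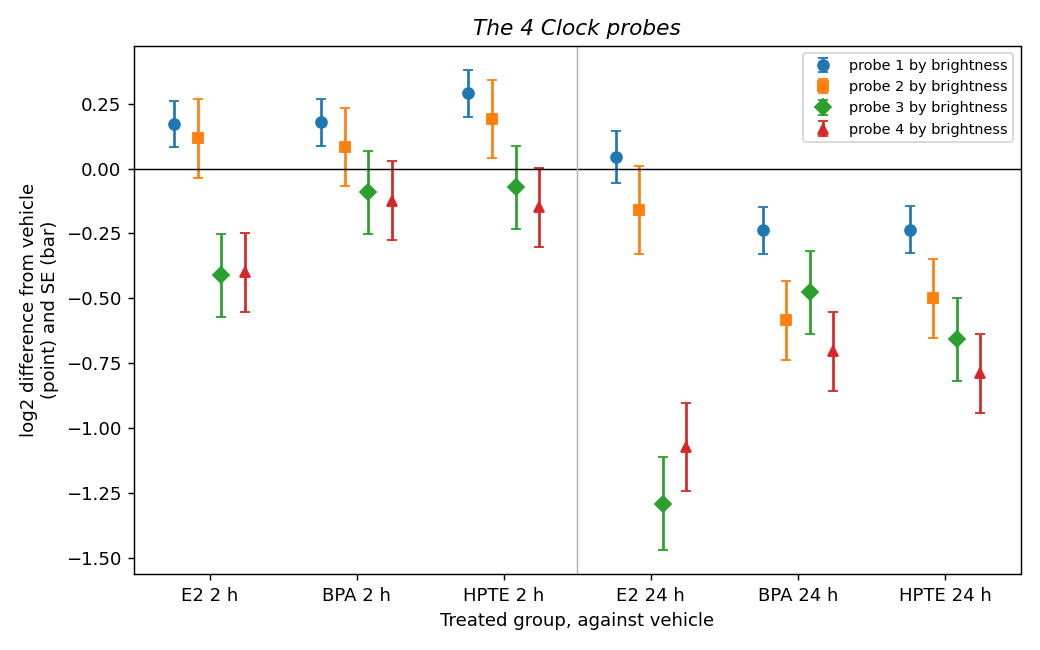
Points give the log2 difference from vehicle of each of the 4 Clock probes, numbered by mean brightness, in the 6 treated groups along the horizontal axis, with the SE as bars. At E2 24 hr probes 1 and 2 stay near 0 and probes 3 and 4 lie below -1, and at 24 hr with BPA or HPTE all 4 are below 0.

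The second Per2 probe (chr1:91347406-91347465), which was far dimmer, changed by -0.11 ± 0.32 at E2 24 hr (adjusted p = 0.791), where the brightest changed by -1.33. At HPTE 2 hr it was called higher like the brightest probe (0.78, adjusted p = 0.0349). At E2 2 hr and BPA 2 hr it was not called (0.47 and 0.69, adjusted p = 0.254 and 0.0571). Nor was it called for BPA or HPTE against E2 at 2 hr (0.23 and 0.31, adjusted p = 0.636 and 0.518). The second Nr1d1 probe followed the brightest (-1.06 at E2 24 hr and -1.07 at HPTE 2 hr), and the dimmest did not pass in any group against vehicle. The second Cry1 probe changed by -0.56 at E2 24 hr, 0.64 at BPA 2 hr and 0.66 at HPTE 2 hr, each called, and was also called at BPA 24 hr (-0.62), where the brightest probe changed by -0.11.

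The spread of group means over the 7 groups was widest for Per2 (2.85 on the log2 scale) and Cry2 (2.76), followed by Per3 (2.35), Per1 (1.90), Nr1d1 (1.79), Dbp (1.46), Cry1 (1.45), Nr1d2 (1.38), Arntl (1.06) and Clock (0.53). By their brightest probes, Per2 and Cry2 had the same order of groups. It was HPTE 2 hr, BPA 2 hr, E2 2 hr, BPA 24 hr, vehicle, HPTE 24 hr, E2 24 hr. For Per2 the arrays of 1 pair of neighbours in that order overlapped, vehicle and HPTE 24 hr, and for Cry2 those of 3 pairs did. Per1 had 4 overlapping pairs of neighbours of 6, Per3, Nr1d1 and Dbp 3 each, Arntl and Nr1d2 4 each, and Cry1 and Clock 5 each. Over the 20 arrays, which share groups and are not independent points, Per2 and Cry2 had a Pearson r of 0.98 and Nr1d1 and Dbp one of 0.92. After the group means were taken out these were 0.67 and 0.83, and without BPA 2 hr replicate 3, over 19 arrays, they were 0.29 and 0.50. Arntl and Dbp had an r of -0.57 and Clock and Dbp one of -0.79. With the group means taken out these were -0.05 and 0.09, and without that array -0.57 and -0.17.

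Among all genes, those with the pattern most like each member over the 20 arrays were found by Pearson r. Cry2 and Per2 shared 2 of their 3 nearest, Npr2 (r = 0.98 and 0.97) and Ell (0.98 for both). Nr1d1 was followed most closely by P2rx7 (0.97) and also by Chodl (0.95), Nr1d2 by Akap8l, Map1lc3b and Tom1l2 (0.97, 0.96 and 0.96), and Dbp by Tcf21, Rad52 and Ces2c (0.95, 0.95 and 0.95). For Per3 they were Enpp5, Abcc5 and Kcnn2 (0.95, 0.95 and 0.95), for Cry1 Zc3h13, Bag3 and Tcf7 (0.95, 0.95 and 0.93), for Clock Rwdd4a, Slc39a6 and Arl5b (0.94, 0.94 and 0.93), for Arntl Rnmt, Polr3e and Thoc1 (0.90 each) and for Per1 Angpt2, Susd6 and Tnfrsf25 (0.90, 0.89 and 0.89).

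A further 22 genes of the clock pathway, all tested, gave the surroundings of the set. At E2 24 hr 4 were higher and 11 lower (26.3% and 37.6% of all probes), with a median of -0.65. The lower genes included Rora and Rorb, receptors that activate Arntl, at -1.53 and -0.80. Hlf and Tef, relatives of DBP that act at the D-box, changed by -2.06 and -1.07. Fbxl21, which acts on the stability of CRY proteins, changed by -2.10. The higher genes were Timeless (1.46), Cipc (0.93), Bhlhe40 (0.58) and Nono (0.32). At 24 hr, 1 of the 22 was higher with BPA (Tef, 0.38) and none lower (5.09% and 8.03% of all probes). With HPTE 3 were higher and 4 lower, shares near those of all probes (14.9% and 19.1%), among them Npas2, a stand-in for CLOCK (-0.84, and -0.72 with E2).

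At 2 hr, 5 of the 22 were higher and 4 lower with E2 (11.1% and 17.0% of all probes), and 7 higher and 6 lower with each of BPA (19.3% and 30.2%) and HPTE (19.9% and 28.2%). The lower counts were near the share of all probes. Nfil3, the D-box repressor, read 0.27 to 0.40 with vehicle, 2.49, 2.71 and 2.78 with E2, 1.75 to 3.20 with BPA and 3.14, 3.36 and 3.34 with HPTE. It rose by 2.31, 2.33 and 2.93 (SE 0.26). Bhlhe40, a repressor at E-boxes, rose by 1.72 with E2, 1.06 with BPA and 1.34 with HPTE (SE 0.11). Rorb changed by -1.05, -2.25 and -1.95 and Arntl2, a relative of Arntl, by -0.82, -1.42 and -1.32. Between HPTE and BPA 1 of the 22 was called at each time, Usp2 at 2 hr (0.65) and Timeless at 24 hr (0.37).

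Per1 is also a target of the glucocorticoid receptor, and injection can raise glucocorticoids, so 9 genes that respond to glucocorticoids were counted beside it. At 2 hr 8 were higher and none lower with E2 (11.1% and 17.0% of all probes), 4 higher and 1 lower with BPA (19.3% and 30.2%), and 6 higher and 1 lower with HPTE (19.9% and 28.2%), with medians of 1.20, 0.82 and 1.07. At E2 24 hr 1 was higher and 5 lower (26.3% and 37.6% of all probes, median -0.70). At BPA 24 hr limma called none (5.09% and 8.03%), with changes from -0.35 to 0.20, and at HPTE 24 hr 1 was lower (19.1%). Fkbp5 changed by 1.20, 0.82 and 1.07 at 2 hr, and Tsc22d3 by 0.16, -0.61 and -0.79. The largest rise of the list at 2 hr was that of Errfi1, at 3.71, 2.82 and 3.41 with E2, BPA and HPTE. The paper describes Errfi1 as a uterine target of estradiol that both xenoestrogens raise as well. The count therefore does not tell a response to glucocorticoids from a response to estrogens. The part of glucocorticoids in the changes of Per1 was not tested.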

How the data were processed

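RNA of 20 uteri (500 ng each) was labelled with Cy3. The deposited intensity of each spot was extracted by the authors with Agilent Feature Extraction 9.5, background subtracted and not scaled between arrays per the file headers. Deposited flags (unit other) mark control spots and those above background, saturated or outlying. The paper's methods and the labels differ on pooling and injection route, and the labels were followed. Treatment and time are exchanged in some label fields, and titles were used. Spots of a probe (outlying ones left out) were averaged as log2 intensity and centred on the array's 75th percentile (1320 to 2046). A probe was tested when well above background on all arrays of a group and missing on at most 2 arrays. Between 73.1% and 81.7% of spots were well above background, and the number of arrays limits precision. A means model over 7 groups was fitted with limma 3.58.1 in R 4.3.3 and tested on simulated data. The 10 genes, the lists, and the rule to give every member and its 3 nearest genes by Pearson r were chosen with earlier results of these data known. Some genes that these lists or that rule give are not reported here. Alternatives were quantile normalization, normexp (offset 50), no or spike-in scaling, filters, blocks, array weights, a 2-fold threshold, groups fitted alone, other probes and leaving out arrays.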

Additional observations from a re-analysis of the deposited data

Results flagged for a closer look

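The change from 2 hr to 24 hr differed between compounds by the interaction test for the following genes. BPA minus E2 was 1.38 for Per1, 1.14 for Per2, 2.62 for Per3, 1.001 for Cry2, 1.95 for Nr1d1, 1.06 for Nr1d2 and 1.76 for Dbp on the log2 scale. HPTE minus E2 was 1.62 for Per1, 2.14 for Per3, -0.40 for Clock, 2.24 for Nr1d1, 0.73 for Nr1d2 and 1.81 for Dbp. For Nr1d1 the change was -0.75 with E2 and 1.20 and 1.49 with BPA and HPTE, so the direction itself differed. The Per2 value for BPA was -0.19 with the second, dimmer probe.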

How the results depend on the processing

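Numbers of the 10 clock genes called changed with these settings. With quantile normalization HPTE at 24 hr had 2, and with normexp HPTE against BPA at 24 hr had 1. Without scaling, BPA at 24 hr had 1, HPTE at 24 hr 2, E2 at 24 hr against 2 hr 5, and BPA against E2 at 2 hr 4. With spike-in scaling, which moved the median of all probes at HPTE 24 hr from -0.06 to -0.36, against vehicle at 2 hr E2 had 0, BPA 2 and HPTE 3, and BPA at 24 hr had 1. Under it E2 at 24 hr against 2 hr had 5, BPA and HPTE against E2 at 2 hr 0 (2 at an unadjusted p under 0.05 by limma) and 2, HPTE against E2 at 24 hr 3, and each interaction with E2 3. The slide as a fixed block left 2 for E2 at 2 hr, 1 for BPA at 24 hr, and 0 and 2 for BPA and HPTE against E2 at 2 hr. Scan day as a block left 1 for BPA at 24 hr. Array weights gave 5 for BPA and 2 for HPTE at 24 hr, 1 for HPTE against BPA at 24 hr, 4 and 7 for BPA and HPTE against E2 at 2 hr, and 1 for the HPTE and BPA interaction. The 2-fold threshold left 0, 2 and 3 for E2, BPA and HPTE at 2 hr, 5 and 0 for E2 and BPA at 24 hr, 5, 3 and 4 for E2, BPA and HPTE between times, and 0 for either xenoestrogen against E2 at 2 hr. Fitting only the compared groups gave 5 for BPA at 2 hr, 2 for HPTE at 24 hr and 0 for BPA against E2 at 2 hr. The second probe gave 4 and 2 for BPA and HPTE at 24 hr, and 0 and 1 for them against E2 at 2 hr. Without the 2 E2 2 hr arrays highest in pancreas markers, E2 at 2 hr had 0 and BPA against E2 at 2 hr 0. Without vehicle replicate 1 and BPA 2 hr replicate 3, HPTE at 24 hr had 2, and BPA and HPTE against E2 at 2 hr 6 and 7. These last 2 settings, and the correlations without BPA 2 hr replicate 3, were chosen after seeing the data. The cause was not tested.

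Leaving out each array in turn gave, against vehicle, 2 to 5 for E2, 7 to 8 for BPA and 7 to 8 for HPTE at 2 hr, and 8 to 9, 1 to 3 and 1 to 2 at 24 hr. Between times it gave 7 to 9, 8 to 9 and 9 to 10, against E2 at 2 hr 1 to 6 and 2 to 7, and at 24 hr 7 to 9 and 7 to 8. The interactions with E2 ranged from 7 to 8 and from 5 to 7, and all comparisons of HPTE with BPA stayed at 0.

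Directions that turned were mostly those of other probes. Cry1 for BPA against E2 at 24 hr was -0.059 and the Per2 interaction of BPA with E2 -0.19 with probe 2. With probes 3 and 4, Clock was -0.072 and -0.15 at HPTE 2 hr, -1.29 and -1.07 at E2 24 hr, 0.82 and 0.37 for BPA and 0.63 and 0.28 for HPTE against E2 at 24 hr, and 0.30 and 0.032 in the HPTE interaction. Probe 3 of Nr1d1 gave -0.19 for HPTE between times and 0.10 for HPTE against E2 at 2 hr. Per1 for BPA against E2 at 2 hr was -0.35 without BPA 2 hr replicate 3, also with vehicle replicate 1 left out, and ranged from there to 0.21 over the arrays left out in turn.

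Replicate numbers did not pair the arrays. Deviations of same-numbered arrays correlated at -0.36 to 0.33 (median -0.05, 12 of 57 pairs over 0.1). With the replicate block 9 genes were called at E2 24 hr and 5 at E2 2 hr, and no count moved by over 1.5 times.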
